A study of Mus musculus with 4 samples.

Results

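Transcripts of 36 genes that load amino acids onto tRNA, make non-essential amino acids or carry the ATF4 amino acid response were compared between Tbx21-KO cDNT and WT cDNT, mouse T cells of the double-negative kind. The genes were chosen by name and function from a table of 24768 genes, with earlier fold changes of this same comparison in view, so their changes are given as a description. All 36 had a row. They comprise 19 subunits or enzymes of the cytosolic aminoacyl-tRNA synthetases, 9 regulators and feedback genes of the ATF4 pathway, and 8 enzymes that make asparagine, serine, one-carbon units and proline. Each group had 2 RNA sequencing libraries. The labels give the genotype as Tbx21-KO or WT, and no age, strain or treatment. Tbx21 encodes T-bet, the factor of the type 1 programme of lymphocytes, and the series concerns its role in how such cells regulate immunity. The sample labels say KO while the design text speaks of a knockdown, and the sources used here do not say how the gene was disrupted. What the prefix c stands for, and whether the libraries of a group came from separate animals or cultures, is not stated either.

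Aminoacyl-tRNA synthetases charge each tRNA with its amino acid and so feed the ribosome. When amino acids run short, uncharged tRNA activates the kinase GCN2, which phosphorylates the initiation factor eIF2. General translation then slows while the mRNA of the transcription factor ATF4 is translated better, and ATF4 switches on synthetases, amino acid transporters and enzymes of asparagine, serine and proline synthesis. Growing T cells also raise ATF4 through mTORC1, and they use serine as a source of one-carbon units for nucleotides. ATF4 pairs with C/EBP proteins on a composite element known as the C/EBP-ATF response element.

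The libraries have to be described before the values. Tbx21 stood at 2.29 and 2.41 FPKM in Tbx21-KO 1 and 2 and at 13.2 and 11.7 FPKM in WT 1 and 2, where FPKM counts fragments relative to gene length and library size. Tbx21-KO thus held 18.8% of the WT level, with log2 fold change -2.01, SE 0.08 and adjusted p = 8.21e-05 by limma. The deposited values imply totals of 23338977 to 24965615 reads per library, and each member rested on 118 to 22304 reads. Of 18 genes of the T cell receptor complex with a row, none was at 0 in both libraries of a group, 13 were lower and 1 was higher in Tbx21-KO, with summed levels of 1522.8 and 1554.7 FPKM in Tbx21-KO and 2134.8 and 2240.6 FPKM in WT. All 12 granulocyte and mast cell markers were higher, with summed levels of 10716.5 and 11022.0 FPKM in Tbx21-KO against 9.09 and 11.5 FPKM in WT, and the granulocyte receptor gene Csf3r was at 0 in WT 1. Markers of monocytes and macrophages, 6 of 6 tested, were higher too, with sums of 302.5 and 325.0 FPKM in Tbx21-KO and 35.2 and 37.1 FPKM in WT. So were 4 of 7 tested dendritic cell markers, namely Batf3, H2-Aa, H2-Eb1 and Cd74. Itgax and Xcr1 stood at 77.2% and 69.0% of the WT mean, and Ccl17 overlapped between the groups. Flt3 and Zbtb46, at means of 0.150 and 0.268 FPKM in Tbx21-KO, were too low to be tested. The dendritic cell list summed to 113.4 and 119.9 FPKM in Tbx21-KO and 40.2 and 44.5 FPKM in WT. Markers of B cells, 3 of 3 tested, were higher, with sums of 92.4 and 89.3 FPKM in Tbx21-KO and 40.7 and 42.3 FPKM in WT. Erythroid and megakaryocyte markers summed to 4.59 and 4.19 FPKM in Tbx21-KO and 0.630 and 0.614 FPKM in WT. The part of such cells in the changes of the members was not tested, and in bulk RNA fewer cells of a type and less RNA per cell cannot be told apart.

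Changes were tested across the 11013 genes with a mean of at least 1 FPKM, as log2(FPKM + 1), which understates the change of low genes; a gene is called higher or lower in Tbx21-KO at a limma adjusted p under 0.05. Of the 36 members 35 were tested, all but Vldlr, and 26 were lower, 4 higher and 5 not called. Among all genes tested, 53.1% were called, 30.1% higher and 23.0% lower. The median log2 fold change was -0.53 over the members tested and 0.04 over all genes tested. Both Tbx21-KO values lay below both WT values in 28 members and above them in 6, with overlap in Farsa and Ddit3; of all genes tested 35.3% lay below and 43.7% above. The direction rests on the scale: with the libraries made equal over the T cell receptor genes, which moved the median of all genes to 0.45, 13 members were lower and 11 higher, where all genes tested gave 74.1% higher calls and 4.57% lower ones. The 13 were Trib3, Sesn2, Chac1, Shmt2, Asns, Psat1, Phgdh, Psph, Nars, Gars, Tars, Iars and Yars. The T cell receptor genes themselves ran from -1.41 in Cd28 to 0.53 in Cd5 with the deposited values. Of all calls 56.7% were higher with the deposited values, 43.0% with median-of-ratios scaling, 39.1% after quantile normalization and 94.2% with the T cell receptor list scaling.

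**Figure D1:**
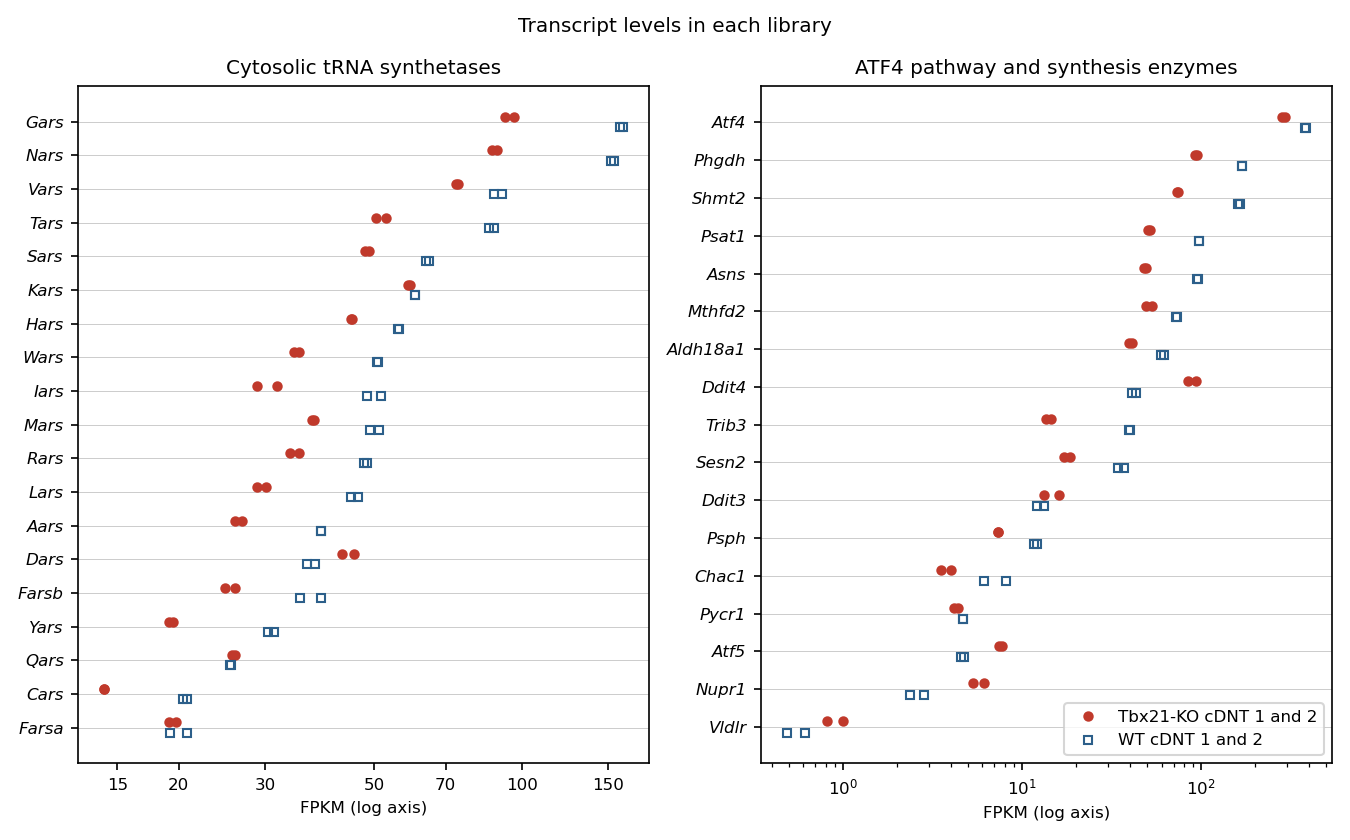
FPKM of each member in each library on a log axis, with Tbx21-KO cDNT 1 and 2 as red circles above and WT cDNT 1 and 2 as open blue squares below; genes are ordered by their WT mean. Most synthetases and synthesis enzymes sit to the left in Tbx21-KO, with Dars, Ddit4, Atf5, Nupr1 and Vldlr to the right; with the T cell receptor list scaling Hars and Vars are higher in Tbx21-KO instead and 11 other members that were lower are not called.

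Since many of these transcripts are known targets of ATF4, the promoters of the members were searched for the core of that element, TGATGNAA on the strand of the gene, or TTNCATCA where it lies on the opposite strand. The windows run from 250 bases before to 50 bases after each annotated start, in RefSeq sequence of GRCm38.p6. The 6 promoters shown are those of the tested members with a match and the largest change, printed 5′ to 3′ along the gene, with the match in capitals.
Trib3, chr2:152344011-152344310, minus strand: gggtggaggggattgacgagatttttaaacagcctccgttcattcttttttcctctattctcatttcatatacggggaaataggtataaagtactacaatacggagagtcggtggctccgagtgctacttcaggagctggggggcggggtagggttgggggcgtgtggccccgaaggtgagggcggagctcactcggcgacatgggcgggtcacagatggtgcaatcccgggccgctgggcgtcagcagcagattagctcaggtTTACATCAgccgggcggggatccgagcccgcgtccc
Asns, chr6:7693160-7693459, minus strand: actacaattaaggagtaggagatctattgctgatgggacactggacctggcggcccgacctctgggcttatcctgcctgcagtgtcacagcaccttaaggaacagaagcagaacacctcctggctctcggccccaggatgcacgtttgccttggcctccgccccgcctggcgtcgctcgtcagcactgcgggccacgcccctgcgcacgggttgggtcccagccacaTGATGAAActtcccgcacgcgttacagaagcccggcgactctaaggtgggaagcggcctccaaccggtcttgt
Nupr1, chr7:126625421-126625720, minus strand: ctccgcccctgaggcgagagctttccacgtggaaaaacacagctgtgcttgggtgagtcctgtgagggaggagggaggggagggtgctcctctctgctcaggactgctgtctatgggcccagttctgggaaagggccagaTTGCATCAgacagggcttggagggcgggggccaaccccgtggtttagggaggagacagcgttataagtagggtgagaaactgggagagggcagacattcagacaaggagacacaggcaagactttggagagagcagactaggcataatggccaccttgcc
Chac1, chr2:119350992-119351291, plus strand: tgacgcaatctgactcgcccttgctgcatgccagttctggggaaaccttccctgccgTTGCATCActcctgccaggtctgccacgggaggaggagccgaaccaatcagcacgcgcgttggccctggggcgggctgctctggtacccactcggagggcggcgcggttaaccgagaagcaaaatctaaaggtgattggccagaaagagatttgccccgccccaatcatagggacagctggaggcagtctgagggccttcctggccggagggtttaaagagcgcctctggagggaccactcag
Gars, chr6:55037751-55038050, plus strand: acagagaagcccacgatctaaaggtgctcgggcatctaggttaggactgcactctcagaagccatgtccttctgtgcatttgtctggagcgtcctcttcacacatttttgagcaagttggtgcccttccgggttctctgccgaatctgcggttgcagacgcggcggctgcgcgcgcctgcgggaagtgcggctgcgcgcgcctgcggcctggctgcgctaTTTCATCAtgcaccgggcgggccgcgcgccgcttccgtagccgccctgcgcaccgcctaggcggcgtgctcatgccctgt
Tars, chr15:11399609-11399908, minus strand: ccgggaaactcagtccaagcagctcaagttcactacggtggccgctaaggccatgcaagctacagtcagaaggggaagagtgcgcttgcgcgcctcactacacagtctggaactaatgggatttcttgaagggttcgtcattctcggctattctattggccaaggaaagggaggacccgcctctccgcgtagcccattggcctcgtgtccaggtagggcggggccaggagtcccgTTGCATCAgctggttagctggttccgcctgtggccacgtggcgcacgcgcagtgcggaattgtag

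A match was found in 11 of the 29 members with a promoter sequence, or 37.9%, against 4.51% of 27025 mouse genes searched in the same way. The members were chosen in part as known ATF4 targets, so this gap follows from the choice and does not bear on Tbx21-KO. Among the synthetases with a promoter it lay in Aars, Gars, Iars, Tars and Yars, which is 5 of 12. These 5 transcripts were lower in Tbx21-KO, although Aars was not called with the T cell receptor list scaling. The 4 synthetases that were not lower, Dars, Farsa, Kars and Qars, had no match, nor did Mars, Sars and Farsb, which were lower. Cars, Hars, Lars, Nars, Rars, Vars and Wars had no promoter sequence to search. All of these were lower with the deposited values, so the split by match leaves out many of the lower synthetases. Of the remaining members with a match, Trib3, Chac1 and Asns were lower, Nupr1 was higher, Pycr1 was not called and Vldlr was too low to be tested. The element was thus found in members of both directions. Aars held 2 matches. A match is a run of letters and not a measured binding site.

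**Figure D2:**
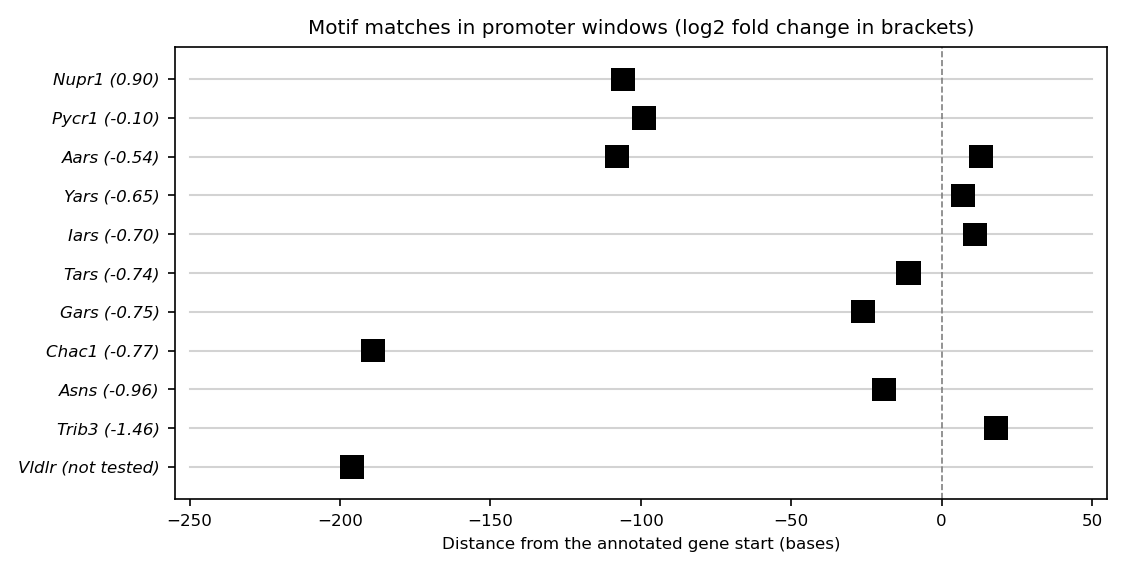
Matches to the element core (black boxes, 8 bases wide) in the promoter windows of the 11 members that held one, by distance in bases from the annotated gene start (dashed line); the log2 fold change of each gene, Tbx21-KO minus WT, is given in brackets. In Tars, Gars and Asns the match begins 15 to 30 bases before the start, in Yars, Iars and Trib3 it begins 3 to 14 bases after it, and in Nupr1, Pycr1, Chac1 and Vldlr it begins 103 to 200 bases before it; Aars has 1 match 112 bases before and 1 match 9 bases after the start. The directions of the genes that were called are the same with the T cell receptor list scaling, except that Aars is not called.

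Most cytosolic synthetases were lower in Tbx21-KO, a direction that did not hold with the T cell receptor list scaling. Of 19, 15 were lower, Dars was higher and 3 were not called, with a median log2 fold change of -0.51; with the T cell receptor list scaling 5 were lower and 6 higher, and the median was -0.06. Their summed level was 797.6 and 805.8 FPKM in Tbx21-KO 1 and 2 and 1128.0 and 1121.2 FPKM in WT 1 and 2, which is 71.3% of WT. They took 0.255% and 0.247% of the summed FPKM in Tbx21-KO and 0.366% and 0.360% in WT. The order of the synthetases by level was headed by Gars and Nars in both groups.

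Lowest relative to WT among them were Nars, Gars and Tars, which charge the tRNAs of asparagine, glycine and threonine. Nars (ENSMUSG00000024587) was at 86.9 and 89.2 FPKM in Tbx21-KO and 154.1 and 151.8 FPKM in WT, which is 57.6% of WT (log2 fold change -0.79, SE 0.04). Gars (chr6:55038007-55079500 in GRCm38) was at 92.5 and 96.3 FPKM in Tbx21-KO and 161.1 and 158.4 FPKM in WT, with a log2 fold change of -0.75 (SE 0.04). Tars was at 50.5 and 52.8 FPKM in Tbx21-KO and 85.8 and 87.8 FPKM in WT. In these 3 genes both Tbx21-KO libraries were far below both WT libraries, and all 3 stayed lower with the T cell receptor list scaling, at -0.31, -0.28 and -0.26. In Gars and Tars the element core in the printed promoters lies just before the start.

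Iars and Yars, the isoleucine and tyrosine enzymes, followed, at 60.7% and 62.5% of the WT mean. Iars was at 31.7 and 28.9 FPKM in Tbx21-KO and 48.4 and 51.6 FPKM in WT. Yars was at 19.1 and 19.5 FPKM in Tbx21-KO and 30.4 and 31.3 FPKM in WT. The groups did not overlap in either gene. These 2 were also lower with the T cell receptor list scaling.

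A middle group of synthetases lay between 64.7% and 75.4% of the WT mean. It held Lars (leucine), Farsb (the beta chain of the phenylalanine enzyme), Aars (alanine), Wars (tryptophan), Cars (cysteine), Rars (arginine), Mars (methionine) and Sars (serine), with log2 fold changes from -0.61 in Lars to -0.40 in Sars and Mars. Wars, for example, was at 35.2 and 34.4 FPKM in Tbx21-KO and 50.8 and 50.9 FPKM in WT. Aars was at 26.9 and 26.0 FPKM in Tbx21-KO and 39.0 FPKM in both WT libraries. None of these 8 was called with the T cell receptor list scaling, where Mars and Sars turned to 0.07. Vars (valine) and Hars (histidine) were lower by less, at 82.6% and 80.2% of WT, and with that scaling both were called higher, at 0.20 and 0.16.

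The other 4 synthetases were not called lower with the deposited values. Dars, the aspartate enzyme, was at 43.0 and 45.5 FPKM in Tbx21-KO and 37.9 and 36.5 FPKM in WT, with a log2 fold change of 0.24 (SE 0.05); its call was lost without Tbx21-KO 2, at 0.20, and with median-of-ratios scaling, at 0.13. Kars, the lysine enzyme, was at 58.7 and 59.3 FPKM in Tbx21-KO and 60.7 and 60.6 FPKM in WT, and it was called lower, at -0.15, with median-of-ratios scaling. Qars, the glutamine enzyme, was at 25.7 and 26.1 FPKM in Tbx21-KO and 25.5 and 25.4 FPKM in WT. Farsa, the alpha chain of the phenylalanine enzyme, overlapped between the groups at 19.7 and 19.1 FPKM in Tbx21-KO and 19.2 and 20.8 FPKM in WT, while its partner Farsb was at 24.8 and 26.0 FPKM in Tbx21-KO and 38.9 and 35.3 FPKM in WT. The enzyme needs both chains, and their transcripts differed in their change, with log2 fold changes of -0.04 (SE 0.05) in Farsa and -0.53 (SE 0.06) in Farsb, a difference that was not itself tested. With the T cell receptor list scaling Dars, Kars, Qars and Farsa were higher. Kars, Qars and Dars are parts of the multisynthetase complex, as are Lars, Iars, Mars, Rars and Eprs.

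The synthetases were also counted by structural class, since the enzymes of the 2 classes have unrelated catalytic folds. Of 9 members of class I, 8 were lower and Qars was not called, with a median of -0.51. Of 10 members of class II, 7 were lower, Dars was higher and 2 were not called, with a median of -0.46. With the T cell receptor list scaling the medians were -0.06 and 0.00.

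Eprs, which joins glutamate and proline charging in 1 protein and was not among the 36, was at 14.5 and 13.7 FPKM in Tbx21-KO and 20.8 and 20.6 FPKM in WT, where the log2 fold change was -0.52, with SE 0.05 and an adjusted p by limma of 0.000994. Of 7 genes of the synthetase complex and of tRNA export, 5 fell, but 3 were lower without Tbx21-KO 1 and 3 without Tbx21-KO 2, since Eef1e1 and Xpo5 lost their calls. Xpot, the exportin of tRNA, and Aimp2, a scaffold of the complex, fell to 65.9% and 66.2% of WT. Tarsl2, a cytosolic relative of Tars, was at 1.53 and 1.62 FPKM in Tbx21-KO and 0.772 and 0.793 FPKM in WT, and it passed the filter on low values only through its Tbx21-KO libraries. With a mean of at least 1 FPKM asked of WT, 6 genes of this list were tested, with 5 lower and 0 higher. With the T cell receptor list scaling 4 of the 7 were higher and none lower, where 74.1% of all genes tested were higher. Eef1e1 and Xpo5 were then higher, at 0.22 and 0.23, and Eprs, Xpot and Aimp2 were not called.

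**Figure D3:**
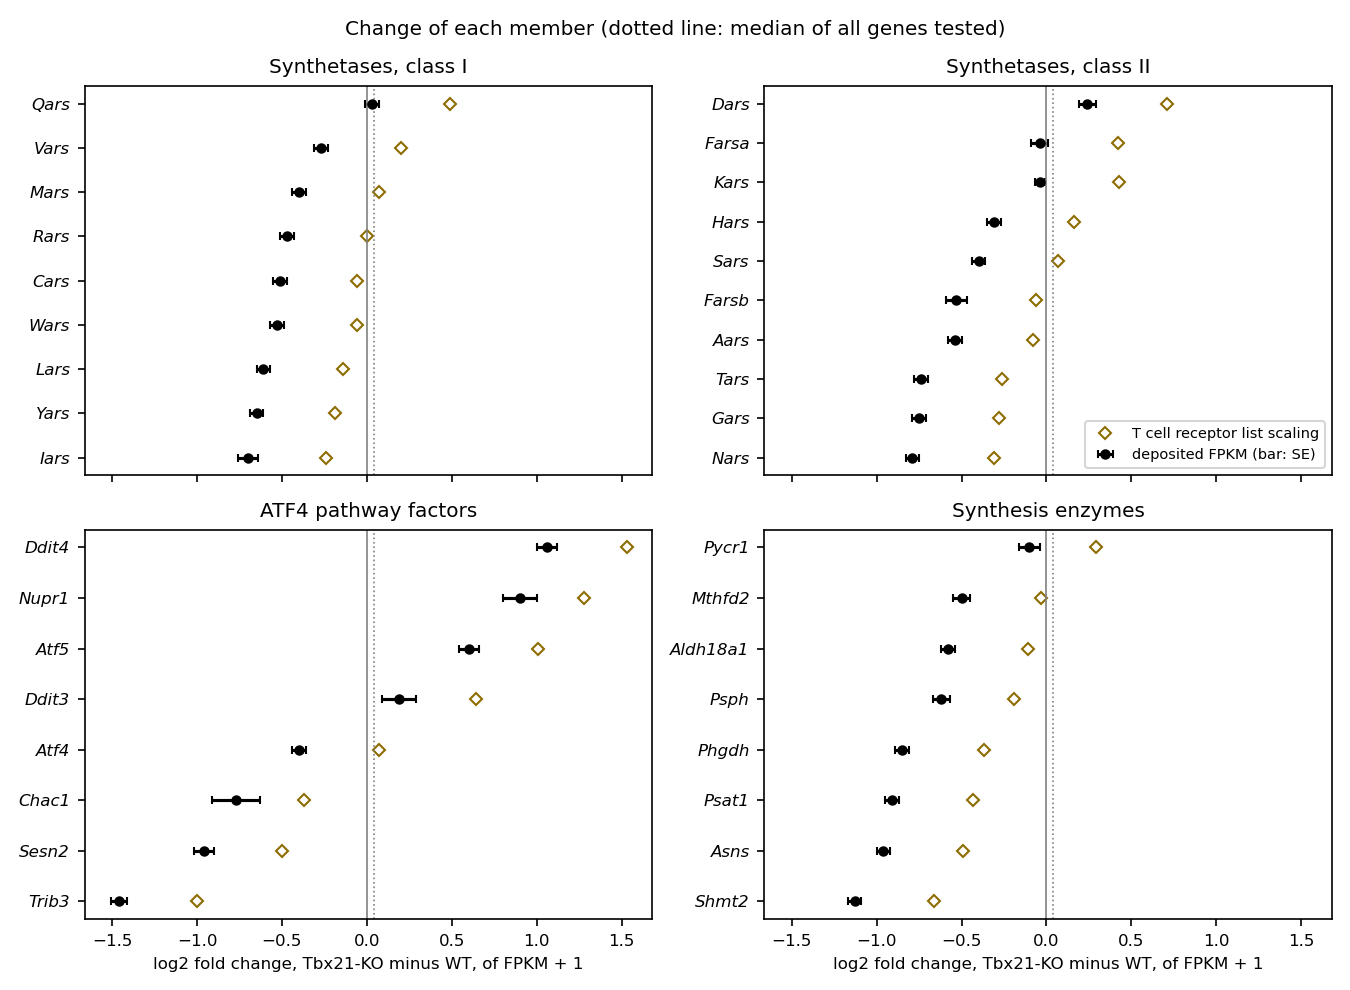
Log2 fold change of each tested member, given as Tbx21-KO minus WT of log2(FPKM + 1) (black circles with SE bars, n = 2 libraries per group) and after the libraries were made equal over the T cell receptor genes (open diamonds); the dotted line is the median of all genes tested. Trib3, Sesn2, Shmt2 and Asns stay left of zero on both scales, whereas Mars, Vars, Sars, Hars, Kars, Farsa, Atf4 and Pycr1 cross it.

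The mitochondrial synthetases gave another picture. They are separate nuclear genes for most amino acids, and they charge the tRNAs of the mitochondrial genome. Of 16 tested, 4 rose, 2 fell and 10 were not called, with a median log2 fold change of 0.04. Of all genes tested 30.1% were higher and 23.0% lower, and their median was 0.04 too. After quantile normalization 1 of the 16 was higher, 7 were lower and the median was -0.23, against -0.10 over all genes tested. Aars2 was at 7.58 and 6.23 FPKM in Tbx21-KO and 3.96 and 4.62 FPKM in WT (log2 fold change 0.58, SE 0.11, limma adjusted p = 0.0115). Fars2 rose by 0.32, while Rars2 and Yars2 fell by 0.27 and 0.22. The calls of Fars2 and Yars2 were lost without any 1 of the 4 libraries, that of Vars2 (0.28) without WT 1 or either Tbx21-KO library, and those of Aars2 and Rars2 without Tbx21-KO 1. With the T cell receptor list scaling 12 of the 16 were higher and none lower, where 74.1% of all genes tested were higher. Rars2 and Yars2 were then higher, at 0.17 and 0.19. Lars2 was uneven, at 15.1 and 36.4 FPKM in Tbx21-KO 1 and 2 and 18.5 and 14.2 FPKM in WT, and was not called, except when Tbx21-KO 1 was left out. In the 14 pairs of a cytosolic and a mitochondrial synthetase of 1 amino acid that were compared, the cytosolic gene had the lower log2 fold change, with a median difference of -0.54. The median difference was -0.32 after quantile normalization and -0.45 with the T cell receptor list scaling. That scaling divides each library by 1 factor, so it could change the difference only through the pseudocount and is no check of it. The 14 pairs share the same 4 libraries, Fars2 stands in 2 of them, and the difference was not tested.

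**Figure D4:**
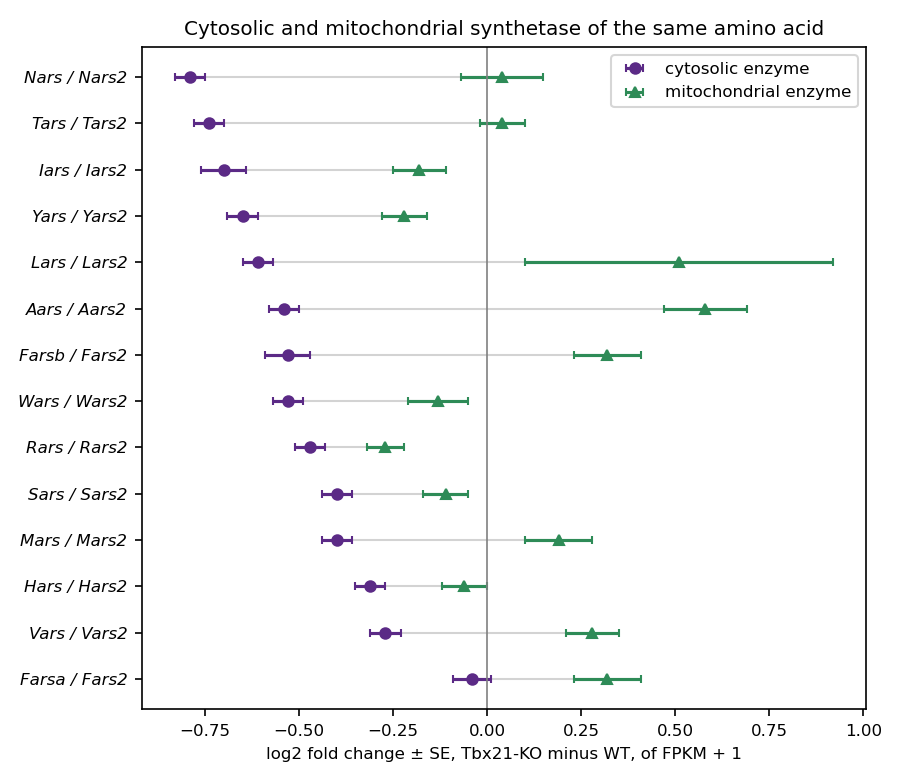
Log2 fold change ± SE, Tbx21-KO minus WT, of the cytosolic synthetase (purple circles) and of the mitochondrial synthetase (green triangles) of the same amino acid, 14 pairs. Each circle lies to the left of its triangle, from a difference of -1.12 in the alanine and leucine pairs to -0.21 in the arginine pair; the wide bar of Lars2 reflects its 2 unequal Tbx21-KO libraries, and with the T cell receptor list scaling both points of a pair move to the right.

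The enzymes of amino acid and one-carbon synthesis were lower as well. Of 8, 7 were lower and Pycr1 was not called, with a median of -0.74, and their summed level was 366.8 and 372.1 FPKM in Tbx21-KO and 675.8 and 671.1 FPKM in WT, which is 54.9% of WT; with the T cell receptor list scaling 5 were lower, Pycr1 was higher and Mthfd2 and Aldh18a1 were not called.

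Serine synthesis runs through Phgdh, Psat1 and Psph, which act in turn on a product of glycolysis. Phgdh (chr3:98313170-98339990 in GRCm38) was at 91.7 and 95.2 FPKM in Tbx21-KO and 167.9 and 169.8 FPKM in WT, 55.4% of WT. Psat1 was at 51.7 and 50.7 FPKM in Tbx21-KO and 96.9 and 97.0 FPKM in WT, 52.8% of WT. Psph, the last step, was the lowest of the 3 in both groups, at 7.31 and 7.37 FPKM in Tbx21-KO and 12.1 and 11.6 FPKM in WT, 61.9% of WT. All 3 steps thus stood between 52.8% and 61.9%, with no overlap between the groups.

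Shmt2, which splits serine in mitochondria into glycine and a one-carbon unit, had the largest decrease of the enzymes. Shmt2 (chr10:127517123-127522444 in GRCm38) was at 73.9 and 73.3 FPKM in Tbx21-KO and 165.2 and 160.4 FPKM in WT, 45.2% of WT, with a log2 fold change of -1.13 (SE 0.04). Mthfd2, the next mitochondrial enzyme of the one-carbon route, was at 49.3 and 52.9 FPKM in Tbx21-KO and 73.2 and 72.5 FPKM in WT, 70.1% of WT. The cytosolic counterpart Shmt1 was at 11.7 and 11.2 FPKM in Tbx21-KO and 12.7 FPKM in both WT libraries and was not called (log2 fold change -0.14, SE 0.05, limma adjusted p = 0.0553), but it was called lower with median-of-ratios scaling, at -0.25, and after quantile normalization, at -0.22, and higher, at 0.30, with the T cell receptor list scaling. Of 11 tested genes of serine, glycine and folate metabolism outside the 36, Shmt1 included, 5 fell and 2 were called higher, or 1 of 10 when WT had to reach a mean of 1 FPKM. Mthfd1l and Mthfd1, the mitochondrial and the cytosolic enzymes that release or use formate, fell to 63.7% and 66.0% of WT. Mtr, the methionine synthase, rose by 0.43. Aldh1l1, which oxidises formyl folate, was at 1.84 and 1.80 FPKM in Tbx21-KO and 0.825 and 0.688 FPKM in WT, and it was tested only because of its Tbx21-KO level. Mthfd1l stayed lower with the T cell receptor list scaling, at -0.16, while Mthfd1 was not called. With that scaling 7 of the 11 were higher, against 74.1% of all genes tested.

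Asns makes asparagine and is a standard readout of ATF4. Asns (chr6:7675169-7693254 in GRCm38) was at 47.6 and 48.9 FPKM in Tbx21-KO and 94.1 and 95.7 FPKM in WT, 50.9% of WT, with a log2 fold change of -0.96 (SE 0.04). Like Nars it serves the use of asparagine, and both were called lower in all 15 alternative fits. Proline is made by Aldh18a1 and then by one of the Pycr enzymes. Aldh18a1 was at 40.8 and 39.5 FPKM in Tbx21-KO and 61.8 and 59.4 FPKM in WT, 66.2% of WT. Pycr1 was at 4.38 and 4.17 FPKM in Tbx21-KO and 4.64 and 4.68 FPKM in WT, and was not called; it was called lower with median-of-ratios scaling, at -0.19, and after quantile normalization, at -0.32, and higher, at 0.29, with the T cell receptor list scaling.

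Of 11 tested genes of proline, glutamate and aspartate metabolism, 5 were called higher and 1 fell, or 4 higher and 1 lower of 10 when WT had to reach a mean of 1 FPKM. The gene that fell was Pycrl, a relative of Pycr1, with a log2 fold change of -0.23; its call was lost without Tbx21-KO 2 and its direction turned to 0.23 with the T cell receptor list scaling. Ass1, which joins citrulline and aspartate on the way to arginine, was at 63.7 and 63.5 FPKM in Tbx21-KO and 23.4 and 23.3 FPKM in WT, 2.73 times the WT mean. With the T cell receptor list scaling all 11 were higher, against 74.1% of all genes tested. Prodh, which degrades proline, was at 1.93 and 2.19 FPKM in Tbx21-KO and 0.220 and 0.239 FPKM in WT, so it was tested only through its Tbx21-KO level.

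The regulators of the ATF4 pathway moved in both directions. Of 8 tested, 4 were lower, 3 higher and 1 not called, where 23.0% of all genes tested were lower and 30.1% higher. With the T cell receptor list scaling 3 were lower and 4 higher, where all genes tested gave 4.57% lower and 74.1% higher. Atf4 itself (chr15:80255184-80257541 in GRCm38) was the most abundant member, at 284.3 and 292.1 FPKM in Tbx21-KO and 378.9 and 384.9 FPKM in WT, 75.5% of WT, with a log2 fold change of -0.40 (SE 0.04) that turned to 0.07 and was not called with the T cell receptor list scaling. Since ATF4 is controlled mainly at translation, its transcript level does not give the level of the protein.

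Trib3, Sesn2 and Chac1 are targets that feed back on the response. Trib3, a pseudokinase that restrains ATF4, had the largest decrease of all 36 members. Trib3 (chr2:152337422-152344032 in GRCm38) was at 13.5 and 14.4 FPKM in Tbx21-KO and 40.2 and 39.6 FPKM in WT, 34.9% of WT, with a log2 fold change of -1.46 (SE 0.05). Sesn2, which restrains mTORC1 when leucine is short, was at 18.5 and 17.1 FPKM in Tbx21-KO and 34.4 and 37.1 FPKM in WT, 49.9% of WT. Chac1, which degrades glutathione, was at 3.98 and 3.51 FPKM in Tbx21-KO and 6.14 and 8.15 FPKM in WT. The 2 WT libraries differed most in Chac1 among the members, by 1.33 times, and its call was lost without Tbx21-KO 2, at -0.70. All 3 were lower on both scales.

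Higher in Tbx21-KO were Ddit4, Nupr1 and Atf5. Ddit4, an inhibitor of mTORC1 that also answers to glucocorticoids and low oxygen (chr10:59949669-59951834 in GRCm38), was at 92.9 and 84.7 FPKM in Tbx21-KO and 40.8 and 43.4 FPKM in WT, 2.11 times the WT mean, with a log2 fold change of 1.06 (SE 0.06). Nupr1, a small stress-induced nuclear protein, was at 5.28 and 6.14 FPKM in Tbx21-KO and 2.36 and 2.82 FPKM in WT. Atf5, a relative of Atf4 that serves the mitochondrial stress response, was at 7.39 and 7.75 FPKM in Tbx21-KO and 4.76 and 4.53 FPKM in WT, 1.63 times the WT mean. These 3 were called higher under each of the 15 alternatives, except that Nupr1 was not tested at a mean of at least 5 FPKM.

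Ddit3, which encodes the stress factor CHOP, overlapped between the groups, at 16.1 and 13.2 FPKM in Tbx21-KO and 13.2 and 12.1 FPKM in WT, and was not called, although it was higher, at 0.64, with the T cell receptor list scaling. Its exons overlap those of Mars on the opposite strand, and whether counting used strand is not given, so reads of these 2 members cannot be told apart there. The low-density lipoprotein family receptor Vldlr was at 0.996 and 0.810 FPKM in Tbx21-KO and 0.609 and 0.486 FPKM in WT, under the level tested. Exons of Aars, Atf5, Cars, Farsb, Hars, Psph, Shmt2 and Yars also overlap those of another gene, among them Il4i1 and Nup62 for Atf5, Ndufa4l2 for Shmt2 and Hars2 for Hars.

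Upstream of ATF4 stand the eIF2 kinases. Eif2ak4, which encodes GCN2, was at 6.67 and 6.09 FPKM in Tbx21-KO and 4.53 and 4.59 FPKM in WT (log2 fold change 0.41, SE 0.07, limma adjusted p = 0.00614). Eif2ak3, which encodes the kinase PERK, was not analysed here. Ppp1r15a, the feedback subunit of the eIF2 phosphatase and itself a classical target, was at 38.1 and 38.2 FPKM in Tbx21-KO and 40.3 and 39.4 FPKM in WT and was not called (adjusted p = 0.224), or higher, at 0.41, with the T cell receptor list scaling. Of 14 tested genes of eIF2, its kinases, phosphatase subunits and exchange factor eIF2B, 7 fell and 2 rose. With the T cell receptor list scaling none was lower and 9 were higher, where 74.1% of all genes tested were higher. Eif2s2, Eif2b1 and Eif2b5 fell by 0.40, 0.37 and 0.35, which turned to 0.07, 0.08 and 0.11 without a call with that scaling, and the rise of Eif2b2 by 0.15 was lost in 7 alternatives.

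Other known ATF4 targets and partners moved in both directions. Of 20 tested, 7 fell and 10 were called higher, with a median log2 fold change of 0.17. When WT had to reach a mean of 1 FPKM, 7 were lower and 9 higher of 19, with a median of 0.11. With the T cell receptor list scaling 4 were lower and 12 higher, where all genes tested gave 4.57% lower and 74.1% higher. Bcat1, a branched-chain amino acid transaminase, fell to 32.3% of WT, at 2.79 and 2.84 FPKM in Tbx21-KO and 8.90 and 8.56 FPKM in WT. Soat2, a cholesterol-esterifying enzyme, and Gpt2, a mitochondrial alanine transaminase, fell to 32.1% and 53.6%. Gadd45a, a growth arrest gene, was at 13.2 and 13.0 FPKM in Tbx21-KO and 2.32 and 1.06 FPKM in WT (log2 fold change 2.43, SE 0.23, limma adjusted p = 0.00116). Jdp2, which encodes a partner in dimers of this factor family, rose by 1.04. Cebpb, another such partner, was at 2.36 and 2.77 FPKM in Tbx21-KO and 0.613 and 0.909 FPKM in WT and was tested only through its Tbx21-KO level. Cebpb is also abundant in myeloid cells, whose markers were higher in the same libraries, and the part of such cells was not tested.

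Amino acid transporters fell together. All 8 tested of the 10 listed were lower, with a median of -1.04, and also with the T cell receptor list scaling, with a median of -0.59. Of all genes tested, 23.0% were lower with the deposited values and 4.57% with that scaling. Slc7a5 and Slc3a2, the 2 chains of the large neutral amino acid transporter, were at 67.1 and 66.3 FPKM and at 77.0 and 75.7 FPKM in Tbx21-KO, against 226.9 and 216.1 FPKM and 145.3 and 147.9 FPKM in WT. Slc7a3 and Slc1a4 fell to 24.4% and 32.9% of WT. Slc7a11, the cystine transporter and a standard target, was at 1.00 and 0.783 FPKM in Tbx21-KO and 0.682 and 0.774 FPKM in WT, under the level tested.

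**Figure D5:**
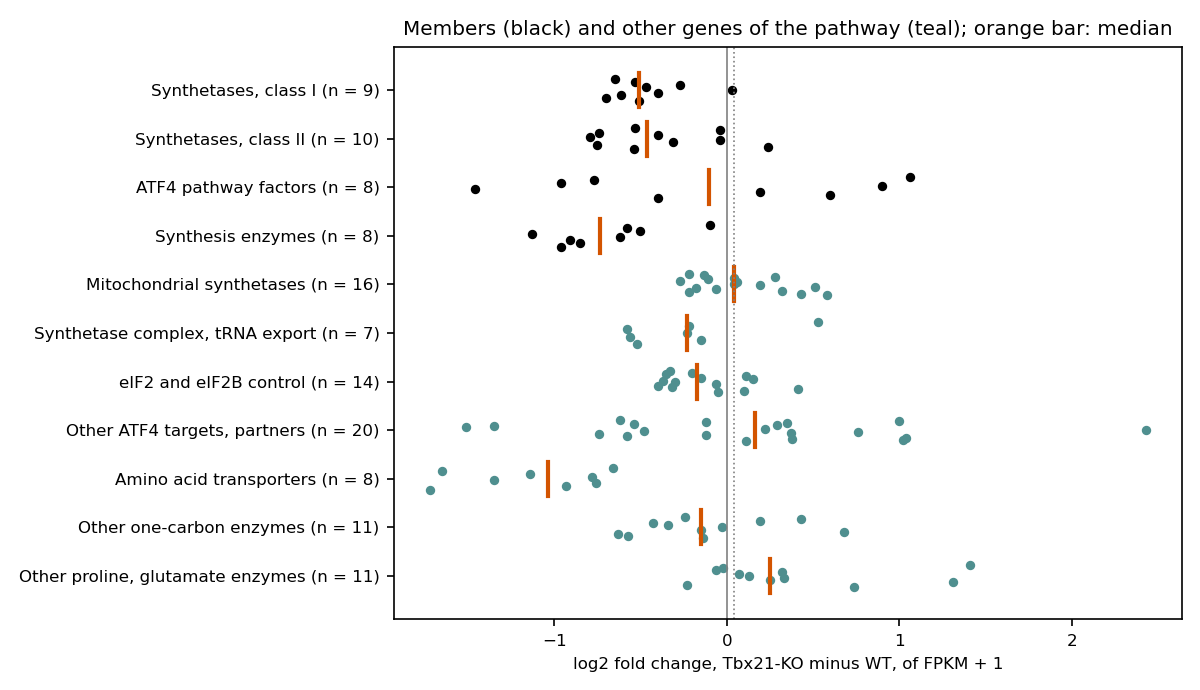
Log2 fold change, Tbx21-KO minus WT of log2(FPKM + 1), for every tested gene of each group, with the members in black, other genes of the pathway in teal and the median as an orange bar; the dotted line is the median of all genes tested. Synthesis enzymes and amino acid transporters have medians of -0.74 and -1.04, the mitochondrial synthetases and other ATF4 targets 0.04 and 0.17; with the T cell receptor list scaling these medians were -0.28, -0.59, 0.36 and 0.64.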

How the data were processed

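The authors deposited 1 table of FPKM per gene and library, per the file headers and labels. RNA was extracted with a RNeasy kit and libraries made with a SMARTER mRNA-Seq kit, per the labels' protocols. The submitters' processing notes name the builds GRCm38 and mm10; for the aligner, the counter, its annotation and its use of strand nothing is stated in the sources read. The last of 24769 rows breaks off and was left out. Of the IDs, 24720 matched GENCODE M21 (GRCm38), which gave symbols and exon lengths. With these lengths, 96.76% to 97.31% of the values under 20 reads came out whole within 0.1 read, which gave the read totals; these need not be the full depth.

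Changes were fitted across all genes with limma 3.58.1 in R 4.3.3 on log2(FPKM + 1), a pseudocount of 1, with an intensity trend and Benjamini-Hochberg adjustment; fold changes are Tbx21-KO minus WT. The script was tested on simulated data. P-values measure the spread between libraries, which may be technical; replicate pairs differed by more than counting noise (median chi-square per gene 1.20 in Tbx21-KO and 1.31 in WT, against 0.455 from counting). An exact permutation test of 2 against 2 cannot go below 0.33 (two-sided) and was not used. The members and gene lists were chosen with earlier results of these data known. Every member is named; of other lists, the 3 largest called rises and falls and 7 genes picked for their role, where they had a row; Vars2, Lars2, Shmt1, Eef1e1 and Xpo5 were named after their values were seen. A few genes that the rule names, and 1 pair of synthetases, are not reported here; counts over lists include those genes. Alternatives changed the pseudocount, filter, scaling, variance model and libraries.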

Additional observations from a re-analysis of the deposited data

How the results depend on the processing

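The T cell receptor list scaling made the libraries equal over 18 T cell receptor genes, whose mean log2 difference was -0.481. These genes did not move together, with log2 fold changes from -1.41 in Cd28 to 0.53 in Cd5. After the scaling 7 of the 18 were called higher and 6 lower. With it 8157 genes were higher and 503 lower, against 3315 and 2531 with the deposited values. Of the members 11 were higher and 13 lower. Of the other pathway genes 55 were higher and 13 lower, against 24 and 35. At a mean of at least 5 FPKM 2018 genes were higher, and after quantile normalization 3801 were lower. The median log2 fold change of all genes was 0.04 with the deposited values, -0.06 with median-of-ratios scaling, -0.10 after quantile normalization and 0.45 with the T cell receptor list scaling. The last turned the log2 fold changes of Mars and Sars and of Atf4 to 0.07, Vars to 0.20 and Hars to 0.16. Kars turned to 0.43, Farsa to 0.42 and Pycr1 to 0.29. Of the other genes named, Rars2 turned to 0.17, Yars2 to 0.19, Eif2s2 to 0.07, Eif2b1 to 0.08 and Eif2b5 to 0.11. Ppp1r15a turned to 0.41, Pycrl to 0.23, Shmt1 to 0.30, Eef1e1 to 0.22 and Xpo5 to 0.23. The T cell receptor list scaling divides each library by 1 factor, so these changes of sign follow from that factor and the pseudocount. Which scale is the right one was not tested. Without any 1 library, 25 to 26 members were lower and 3 to 4 higher. The labels' replicate numbers are only shared numbers (correlation of same-numbered deviations -0.0247), and with the replicate block 3245 genes were higher and 2482 lower, with 26 members lower and 4 higher, and the call of Eif2b2 among the genes named was lost. Voom on recovered reads gave the same 26 and 4. Tbx21 was called lower under each alternative. All precision rests on 2 libraries per group.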
